A study of Mus musculus with 20 samples.

Results

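DNA replication and nucleotide supply genes were examined as a set of 38 genes. They were chosen by symbol for their roles in copying DNA and in making its building blocks, with earlier results of these data known. All 38 were found both among the 20188 genes listed for primary tumors and among the 50667 Ensembl genes listed for cultured cells, and all 38 passed the filter on low values (a mean of at least 0.1), which left 13487 genes in tumors and 21106 in cells. The data come from Mvt1, a metastatic mammary carcinoma cell line of FVB mice. Every library carried a lentiviral shRNA vector selected with puromycin, either a scramble sequence (scr) or sh4, a single shRNA against *Rnaseh2c*, so that no untransduced cells and no other knockdown sequence entered these comparisons. The tumor libraries were 3 scr and 3 sh4 primary tumors, small sections of which were taken for RNA, labelled day 30 after injection of the cells into the mammary fat pad of female FVB mice, each of 3 experiments giving 1 scr and 1 sh4 tumor. The cell libraries were 3 scr and 3 sh4 plates of the same cells in culture. The 8 exome libraries of the series were not used here.

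DNA replication starts when the origin recognition complex, with Cdc6 and Cdt1, loads the Mcm2 to Mcm7 ring onto DNA in the G1 phase, a step called licensing. In S phase Mcm10, Cdc45 and the GINS complex turn the loaded ring into a moving helicase, the primase and DNA polymerase α begin each new strand, and polymerases δ and ε extend it, held to the DNA by the sliding clamp Pcna that the Rfc complex loads. Fen1, Dna2 and Lig1 trim and join the Okazaki fragments of the lagging strand, while ribonucleotide reductase (Rrm1 and Rrm2), Tk1, Tyms and Dut supply and clean the nucleotide pool. Many of these genes are expressed around the G1/S transition under E2F transcription factors, and their transcripts are commonly read as a sign of how many cells of a tissue are cycling. The target of sh4, *Rnaseh2c*, encodes a subunit of RNase H2, which removes ribonucleotides from DNA.

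The shared letters of their promoters are shown first, because the genes were chosen by role and not by sequence. RefSeq promoters (GRCm38.p6, 250 bases before to 50 after the start) were matched for 31 of the 38 genes. An E2F-type motif, spelled TTCCCGC or TTCGCGC, and likewise TTGCCGC or TTGGCGC, on either strand, was present in 17 of these 31 promoters (54.8%), against 9.69% of 27025 promoters of all genes and 12.2% of 17492 promoters of protein-coding genes. The letters CCAAT on either strand were present in 18 (58.1%) against 37.9% of all promoters, and both motifs in 12 (38.7%) against 3.86%. TTTGAA, the letters of the CHR element known from promoters of mitotic genes, was present in 4 (12.9%) against 18.1%. Such a match describes letters and does not show that a factor binds there. Stretches of 60 bases upstream of the start are given for 8 genes of licensing, DNA polymerase α and nucleotide supply. They run 5′ to 3′ along the strand of the gene, with the E2F-type motifs in capitals.
*Orc1* (chr4:108579394-108579453, plus strand): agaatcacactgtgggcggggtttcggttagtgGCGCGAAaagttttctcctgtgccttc
*Cdc6* (chr11:98907987-98908046, plus strand): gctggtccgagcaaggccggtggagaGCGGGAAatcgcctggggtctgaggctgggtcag
*Mcm5* (chr8:75109334-75109393, plus strand): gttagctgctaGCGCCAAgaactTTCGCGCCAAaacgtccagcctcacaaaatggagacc
*Mcm6* (chr1:128359715-128359774, minus strand): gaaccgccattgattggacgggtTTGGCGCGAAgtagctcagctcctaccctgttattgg
*Mcm7* (chr5:138172015-138172074, minus strand): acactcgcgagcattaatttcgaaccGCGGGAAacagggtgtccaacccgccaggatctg
*Pola1* (chrX:93632243-93632302, minus strand): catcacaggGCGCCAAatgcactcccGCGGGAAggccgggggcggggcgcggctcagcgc
*Rrm1* (chr7:102441602-102441661, plus strand): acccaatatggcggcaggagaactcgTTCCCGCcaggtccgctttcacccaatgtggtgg
*Rrm2* (chr12:24708004-24708063, plus strand): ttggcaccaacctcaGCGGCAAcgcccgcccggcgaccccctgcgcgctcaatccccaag
In *Mcm5* and *Mcm6* motifs on opposite strands overlapped, so that their capitals run on as 1 block. Within the stretches shown, *Pola1* held 2 separate motifs, and *Mcm5* held 1 more beside its block. The whole promoters of *Pola1*, *Mcm6* and *Mcm7* held 4, 5 and 3 motifs, more than their stretches show.

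Libraries were compared first, since the replication genes stood low in 1 library of each table. In tumors sh4 tumor 2 held the lowest value in 24 of the 38 genes (63.2%), against 38.4% of all genes tested, and sh4 tumor 1 in another 10. As a median deviation from each gene's mean over the 6 tumors, on the scale of log2(RPKM + 0.5), the 38 genes stood at 0.04, 0.11 and 0.04 in scr tumors 1 to 3 and at 0.00, -0.31 and 0.06 in sh4 tumors 1 to 3. Scr tumor 2 held the highest value in 11 of the 38 genes, the most of any tumor. All genes tested stood at -0.16 in sh4 tumor 2, so the replication genes lay below the general shift of that library. In sh4 tumor 2, 11 of the 38 genes lay at least 0.5 below their own mean, and in each of the other 5 tumors 0 did. The share of all genes at this cutoff was not counted. *Rrm2* was lowest there with -1.04, followed by *Mcm2* (-0.77), *Mcm4* (-0.74), *Cdc45* (-0.73) and *Pole2* (-0.72). In cells scr plate 1 held the lowest value in 32 of the 38 genes (84.2%), against 33.9% of all genes tested and 44.4% of genes with a mean of at least 1. Housekeeping genes shared this, with 11 of 12 (91.7%) lowest in scr plate 1 and a median deviation of -0.19 there. The median deviation was -0.17, -0.03 and 0.00 in scr plates 1 to 3 and 0.11, 0.05 and 0.03 in sh4 plates 1 to 3 on the scale of log2(FPKM + 0.5). Scr plate 1 also had the lowest sum of FPKM over all genes, 659082 against 785372 to 864566 in the other plates.

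**Figure D1:**
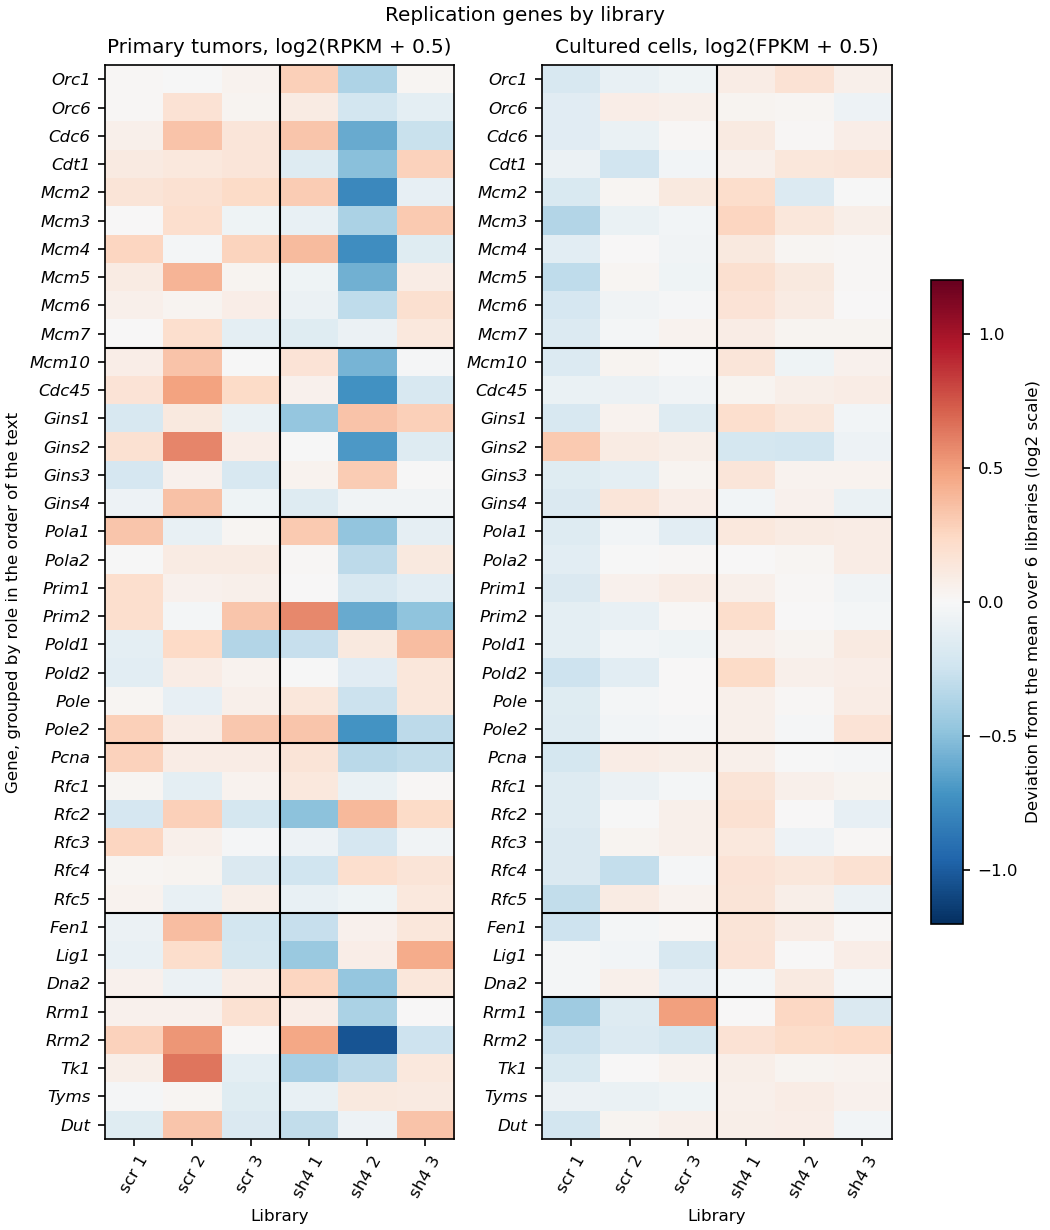
Deviation of each of the 38 genes (rows, grouped by role) from its own mean over the 6 libraries of a table, on the scale of log2(value + 0.5), for tumors (left) and cells (right). Blue is below and red above the mean. The column of sh4 tumor 2 is darkest, with 11 genes at least 0.5 below their mean, and scr plate 1 holds the lowest value of 32 genes. The share of all genes at that cutoff was not counted, and 33.9% of all genes tested were lowest in scr plate 1.

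Other values also differed between these libraries. Of 20 mitosis genes, 16 were lowest in sh4 tumor 2, and their median deviation there was -0.50. Housekeeping genes (12) stood at -0.27 in the same tumor. T cell markers went the other way, with a median deviation of 0.81 in sh4 tumor 2 and a sum over 7 markers of 49.95 to 86.7 RPKM in sh4 tumors against 23.1 to 33.3 RPKM in scr tumors, and 0 of the 7 lay under 0.1 RPKM as a mean. Endothelial markers (6, all with a log2 difference above 0) summed to 19.4 to 37.4 RPKM in sh4 and 14.7 to 18.8 RPKM in scr tumors. Their median deviation was -0.22 in sh4 tumor 2, against 0.70 and 0.33 in sh4 tumors 1 and 3. Tumor epithelium markers (8) stood at 0.22 in sh4 tumor 2, and summed to 415 to 745 RPKM in sh4 and 586 to 1106 RPKM in scr tumors. Fibroblast markers (7) stood at -0.59 in sh4 tumor 2 and at -0.65 in scr tumor 2. Adipocyte markers summed to 2546 RPKM in scr tumor 2, where all 8 were highest, and to 54.2 to 331 RPKM in the other 5 tumors. Macrophage markers summed to 2756 to 3361 RPKM in scr and 2723 to 3076 RPKM in sh4 tumors. An index of transcript length, which sets short transcripts (under 1000 bases) against long ones (over 4000) by their median deviations, was 0.41 in sh4 tumor 2 and 0.30 in scr tumor 2, and -0.37 to 0.06 in the other tumors. The part of these in the values of the replication genes was not tested. In a bulk tumor, fewer cycling cells and less RNA per cell cannot be told apart. In the cultured cells all 8 T cell markers and all 6 endothelial markers lay under 0.1 FPKM. The epithelial keratin *Krt8* was the highest epithelial marker there with 318.5 FPKM, while the defining epithelial markers *Krt7*, *Epcam* and *Cdh1* lay under 0.1 FPKM.

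**Figure D2:**
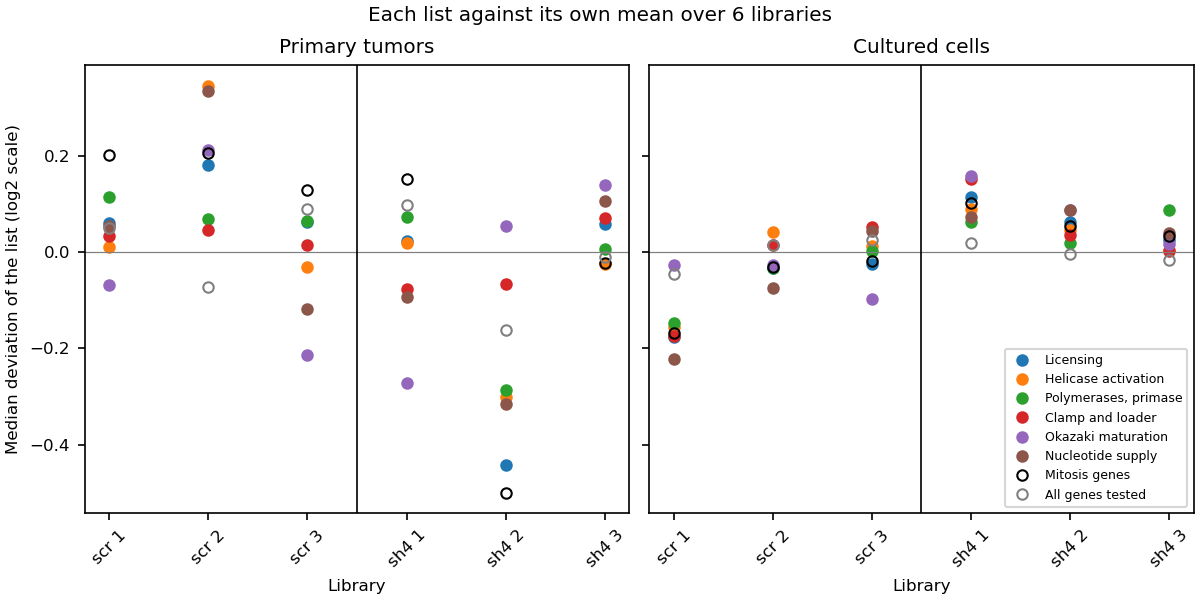
Median deviation of each role group, of 20 mitosis genes and of all genes tested (vertical axis, log2 scale) in each library (horizontal axis), for tumors (left) and cells (right), without error bars because each point is a median over genes of 1 library. In tumors the licensing and mitosis genes lie lowest in sh4 tumor 2, the latter at -0.50, and in cells the groups lie lowest in scr plate 1, except Okazaki maturation, which lies lowest in scr plate 3.

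In primary tumors 0 of the 38 genes passed the test of sh4 against scr, and 0 of all genes did (0% called by limma at an adjusted p under 0.05). At an unadjusted p under 0.05, 0 of the 38 were higher, against 2.16% of all genes, and 2 were lower, against 2.02%. This count was 9 without sh4 tumor 1, and 1 with the length index and under either other scaling (quantile, median-ratio). It was 0 with no filter, without any 1 of the other 5 tumors, and with the experiment number as a block. Over all genes, both directions together, 564 of 13487 passed that threshold in the fit above. The number was 2030 without sh4 tumor 1, 1234 with the length index and 911 with the block. The log2 difference lay below 0 for 29 of the 38 genes, against 57.4% of all genes, and above 0 for 9, against 42.6%, with a median of -0.14 against -0.043. In 4 genes, *Cdc45*, *Gins2*, *Prim1* and *Rfc3*, all 3 sh4 tumors lay below all 3 scr tumors (10.5% of the 38, against 4.98% of all genes), and in 0 genes did they lie above (4.19% of all genes). These counts were 3 lower and 1 higher with quantile normalization and 2 lower and 1 higher with median-ratio scaling. The shares of all genes under these scalings were not counted. The 95% interval of the difference reached a median of 0.51 to either side. For 30 of the 38 genes it excluded a difference of 1 in either direction on the scale of log2(RPKM + 0.5), which for low genes is more than 2-fold. Without sh4 tumor 2 the median was -0.050 against 0.021 over all genes, with 15 of the 38 above and 23 below 0. Without scr tumor 2 it was -0.11 against -0.093, so that the gap between the 38 genes and all genes went from -0.097 to -0.014. With median-ratio scaling 16 lay above and 22 below 0.

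In cultured cells 1 of the 38 genes passed, *Rrm2*, which was higher in sh4 plates. Of all genes, 1.28% were called by limma, 0.521% higher and 0.758% lower. At an unadjusted p under 0.05, 9 of the 38 genes were higher, against 9.55% of all genes, and 1 was lower, against 9.33%. The count of higher genes was 16 with quantile normalization, 13 with median-ratio scaling and 5 without sh4 plate 1 or 2. Over all genes, both directions together, 3986 of 21106 passed that threshold in the fit above. The number was 4755 with quantile normalization, 4872 with median-ratio scaling, and 2854 and 2817 without sh4 plate 1 and 2. The log2 difference lay above 0 for 35 of the 38 genes, against 49.6% of all genes, and below 0 for 3, against 50.4%, with a median of 0.13 against -0.002. In 18 genes (47.4%) all 3 sh4 plates lay above all 3 scr plates, against 13.6% of all genes, and in 1 gene, *Gins2*, they lay below, against 13.8%. The intervals were narrower than in tumors, with a median of 0.19 to either side. For all 38 genes they excluded a difference of 1 in either direction on the scale of log2(FPKM + 0.5). Without scr plate 1 the median was 0.094, with 28 genes above and 10 below 0. At an unadjusted p under 0.05 there were 7 higher, and 4380 of all genes passed in both directions together. In 4 genes in place of 1 all sh4 plates lay below all scr plates, and the share of all genes for this was not counted.

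**Figure D3:**
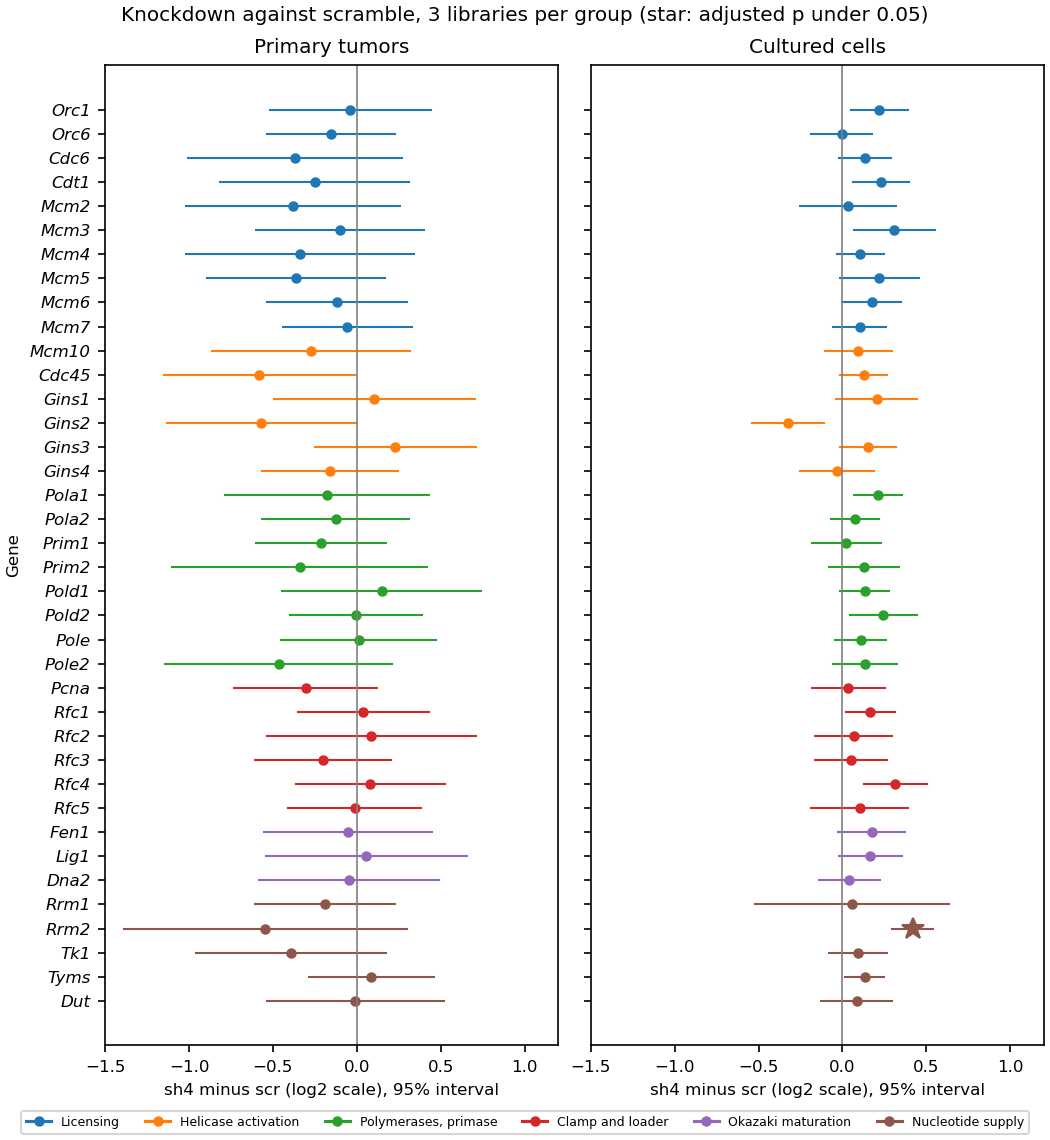
Log2 difference of sh4 against scr (points, horizontal axis) with its 95% interval from limma (lines) for each of the 38 genes (vertical axis, colored by role), in tumors (left) and cells (right), 3 libraries per group. *Rrm2* in cells is the only gene with an adjusted p under 0.05 (star), 29 points lie below 0 in tumors and 35 lie above 0 in cells.

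Among the 10 licensing genes all log2 differences lay below 0 in tumors (median -0.20; 8 with median-ratio scaling) and 9 lay above 0 in cells (median 0.15; 8 with quantile normalization), with 0 called in either. Without sh4 tumor 2 the tumor median was -0.057, with 7 genes below 0. *Mcm3*, a subunit of the Mcm ring (chr1:20793055-20810359 on mm9, minus strand), was at 15.7, 18.0 and 15.1 RPKM in scr and 14.7, 11.9 and 19.6 RPKM in sh4 tumors. The groups overlapped, and the log2 difference was -0.10 (SE 0.22). In cells *Mcm3* was at 66.2, 79.8 and 82.1 FPKM in scr and 101, 92.4 and 88.5 FPKM in sh4 plates, a log2 difference of 0.31 (SE 0.10), with all sh4 plates above all scr plates and an adjusted p of 0.181 by limma. Without scr plate 1, the lowest of the 6, it was 0.21. *Mcm7*, the licensing gene with the highest level in tumors, was at 31.8, 36.7 and 29.3 RPKM in scr and 28.8, 30.2 and 34.8 RPKM in sh4 tumors. In cells *Mcm7* was at 12.9, 14.3 and 14.97 FPKM in scr and 15.6, 14.9 and 14.9 FPKM in sh4 plates, and the groups overlapped in both tables. *Mcm7* shares its position with *Ap4m1* and *Cops6* on the other strand and with the microRNAs *Mir106b*, *Mir25* and *Mir93* on its own, so reads from these genes may not be told apart. Of the other licensing genes, *Mcm2*, *Mcm4*, *Mcm5*, *Cdc6* and *Cdt1* had log2 differences of -0.38 to -0.25 in tumors. *Orc1* and *Cdt1* reached 0.22 and 0.23 in cells.

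The 6 helicase activation genes included the 2 lowest log2 differences of the set in tumors, with 0 of the 6 called in either table. *Cdc45*, which joins the Mcm ring into the active helicase (chr16:18780540-18812080 on mm9, minus strand, overlapped by *Ufd1l* on the other strand), was at 8.33, 10.5 and 8.73 RPKM in scr tumors (9.18 ± 1.15, SD, n = 3). It was at 7.68, 4.25 and 6.39 RPKM in sh4 tumors (6.11 ± 1.74, SD, n = 3). All 3 sh4 tumors lay below all 3 scr tumors, with a log2 difference of -0.58 (SE 0.25; unadjusted p = 0.047, adjusted p = 0.995 by limma; exact two-sided permutation p = 0.1, the smallest that 3 against 3 allow). Without sh4 tumor 2 it was -0.36. In cells *Cdc45* was at 2.00, 2.01 and 2.06 FPKM in scr and 2.20, 2.26 and 2.30 FPKM in sh4 plates, a log2 difference of 0.13 (SE 0.058, adjusted p = 0.304 by limma) with no overlap. *Gins2*, a GINS subunit, overlaps *Gse1* and *Gm20388* on the other strand (chr8:123102533-123113204 on mm9, minus strand). *Gins2* was at 13.3, 17.8 and 12.4 RPKM in scr and 11.7, 7.04 and 10.4 RPKM in sh4 tumors. The log2 difference was -0.57 (SE 0.24, adjusted p = 0.995 by limma). In cells *Gins2* was at 5.44, 4.59 and 4.51 FPKM in scr and 3.62, 3.58 and 4.08 FPKM in sh4 plates, a log2 difference of -0.32 (SE 0.089, adjusted p = 0.135 by limma). *Gins2* was the only 1 of the 38 genes whose groups did not overlap, with sh4 lower, in both tables. The share of all genes with this in both tables was not counted. Taken singly, it was 4.98% in tumors and 13.8% in cells. *Gins4*, with the highest level of this group in both tables, was at 23.5, 31.5 and 23.6 RPKM in scr and 22.0, 23.8 and 23.9 RPKM in sh4 tumors. In cells it was at 13.5, 16.8 and 16.1 FPKM in scr and 14.9, 15.8 and 14.4 FPKM in sh4 plates, and its groups overlapped in both tables. The other GINS subunits, *Gins1* and *Gins3*, had log2 differences of 0.10 and 0.23 in tumors and 0.21 and 0.15 in cells.

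Among the 8 polymerase and primase genes 6 lay below 0 in tumors (5 with quantile normalization or median-ratio scaling, 3 without sh4 tumor 2) and all 8 above 0 in cells (7 without scr plate 1), with 0 called. *Pola1*, the catalytic subunit of DNA polymerase α, was at 4.54, 3.25 and 3.58 RPKM in scr and 4.46, 2.38 and 3.22 RPKM in sh4 tumors. In cells it was at 3.48, 3.83 and 3.54 FPKM in scr and 4.34, 4.25 and 4.20 FPKM in sh4 plates, a log2 difference of 0.21 (SE 0.059, adjusted p = 0.139 by limma) with no overlap. *Pola2*, its accessory subunit, lies on chromosome 19 (5940543 to 5964206 on mm9), 337103 bases from *Rnaseh2c*. *Pola2* was at 8.65, 9.29 and 9.29 RPKM in scr and 8.73, 6.85 and 9.43 RPKM in sh4 tumors. In cells *Pola2* was at 7.52, 8.21 and 8.33 FPKM in scr and 8.25, 8.37 and 8.80 FPKM in sh4 plates. Its groups overlapped in both tables, with intervals of -0.56 to 0.31 in tumors and -0.07 to 0.22 in cells. *Pold2*, a subunit of polymerase δ, was at 11.4, 13.3 and 12.9 RPKM in scr and 12.4, 11.3 and 13.7 RPKM in sh4 tumors, a log2 difference of -0.01. In cells *Pold2* was at 6.85, 7.48 and 8.22 FPKM in scr and 9.70, 8.57 and 8.69 FPKM in sh4 plates, a log2 difference of 0.24 (adjusted p = 0.197 by limma). Without scr plate 1 it was 0.18.

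Of the 6 genes of the clamp and its loader, 3 lay above and 3 below 0 in tumors (median 0.01; 4 above with quantile normalization or median-ratio scaling). In cells all 6 lay above 0 (5 with quantile normalization, 3 without scr plate 1), and 0 were called in either table. *Pcna*, the sliding clamp, had the highest level of the 38 genes in tumors, at 154, 135 and 135 RPKM in scr and 142, 102 and 104 RPKM in sh4 tumors. The groups overlapped through sh4 tumor 1, and the log2 difference was -0.30 (SE 0.18). In cells *Pcna* was at 51.1, 63.2 and 62.0 FPKM in scr and 62.0, 59.2 and 58.8 FPKM in sh4 plates, a log2 difference of 0.04 that was -0.06 without scr plate 1. The copies *Pcna-ps1* and *Pcna-ps2* may share reads with it. *Rfc4*, a subunit of the clamp loader that overlaps *Eif4a2* on the other strand, was at 11.4, 11.5 and 9.91 RPKM in scr and 9.42, 13.0 and 12.6 RPKM in sh4 tumors. In cells *Rfc4* was at 4.00, 3.67 and 4.52 FPKM in scr and 5.18, 5.07 and 5.25 FPKM in sh4 plates, a log2 difference of 0.32 (SE 0.079, adjusted p = 0.115 by limma) with no overlap. *Fen1*, the flap nuclease with the highest level of the 3 Okazaki maturation genes, was at 14.6, 19.9 and 13.1 RPKM in scr and 12.6, 15.9 and 16.9 RPKM in sh4 tumors. In cells *Fen1* was at 37.3, 43.4 and 44.6 FPKM in scr and 49.4, 47.0 and 44.7 FPKM in sh4 plates, where the groups did not overlap but their nearest plates lay side by side.

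Of the 5 nucleotide supply genes, 4 lay below 0 in tumors (3 with quantile normalization or median-ratio scaling) and all 5 above 0 in cells (3 without scr plate 1). *Rrm2*, the small subunit of ribonucleotide reductase, the enzyme that limits the supply of deoxyribonucleotides (chr12:25393106-25399011 on mm9, plus strand), was at 47.5, 50.9 and 49.0 FPKM in scr plates (49.2 ± 1.68, SD, n = 3). It was at 64.4, 66.2 and 67.1 FPKM in sh4 plates (65.9 ± 1.37, SD, n = 3). All 3 sh4 plates lay above all 3 scr plates and *Rrm2* rose by 0.42 on the log2 scale (SE 0.051, adjusted p = 0.031 by limma). With the plate number as a block *Rrm2* was not called (adjusted p = 0.256 by limma). The call without a block rested on these 6 plates together. Leaving out scr plate 1 kept it (adjusted p = 0.036 by limma), while leaving out scr plate 2 or 3 or sh4 plate 1, 2 or 3 gave 0.103, 0.108, 0.136, 0.154 and 0.147, with log2 differences of 0.40 to 0.44 throughout. In tumors *Rrm2* was at 19.5, 23.3 and 16.2 RPKM in scr and 22.3, 7.53 and 13.4 RPKM in sh4 tumors, a log2 difference of -0.55 (SE 0.36, interval -1.39 to 0.30) that was -0.16 without sh4 tumor 2. The sh4 tumors held both the second highest and the lowest of the 6 values. *Rrm1*, the large subunit, gave a ratio of *Rrm2* to *Rrm1* of 2.12 to 4.63 in cells and of 0.481 to 1.10 in tumors. In scr plate 3 *Rrm1* was at 23.2 FPKM, against 12.1 to 19.6 FPKM in the other plates, and no other gene of the set deviated as far from its mean in that plate. *Tk1*, the S phase thymidine kinase overlapped by *Afmid* on the other strand, was at 35.8, 53.4 and 31.4 RPKM in scr and 25.8, 27.4 and 37.3 RPKM in sh4 tumors (log2 difference -0.39, SE 0.24), and without scr tumor 2 it was -0.17. In cells *Tk1* was at 15.6, 17.8 and 18.3 FPKM in scr and 18.7, 18.1 and 18.3 FPKM in sh4 plates. *Dut*, which removes dUTP, was at 36.6, 51.3 and 35.8 RPKM in scr and 32.9, 38.9 and 51.7 RPKM in sh4 tumors, and at 21.9, 26.3 and 26.8 FPKM in scr and 27.1, 27.2 and 25.2 FPKM in sh4 plates. The groups of *Tk1* and *Dut* overlapped in both tables.

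**Figure D4:**
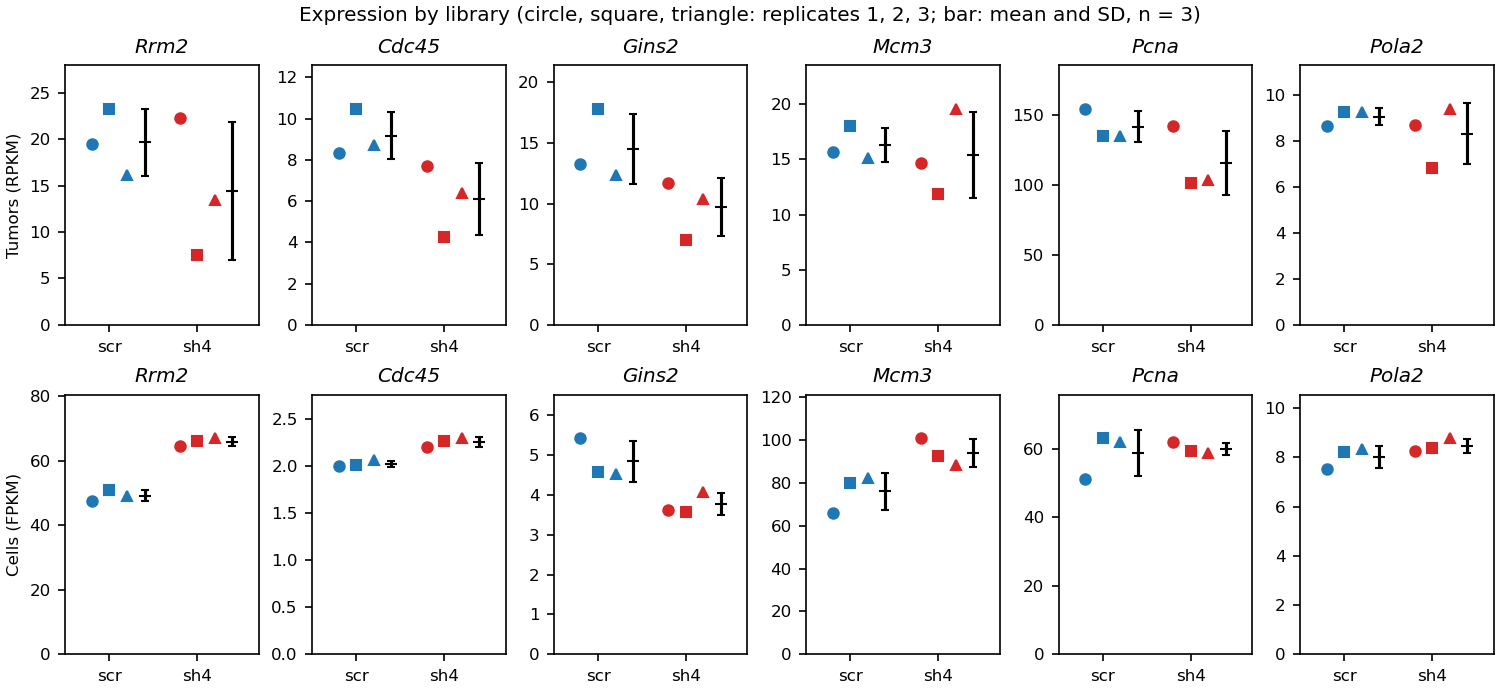
Expression of 6 of the genes in every library (vertical axes from 0, RPKM for tumors above and FPKM for cells below), with circles, squares and triangles for replicates 1, 2 and 3 and bars for the mean and SD (n = 3). *Rrm2* lies between 64.4 and 67.1 FPKM in sh4 plates and between 47.5 and 50.9 FPKM in scr plates, while its sh4 tumors spread from 7.53 to 22.3 RPKM.

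Set side by side, 26 of the 38 genes had a log2 difference below 0 in tumors and above 0 in cells, 9 lay above 0 in both, 3 (*Orc6*, *Gins2* and *Gins4*) lay below 0 in both, and 0 lay above 0 in tumors and below 0 in cells. The share of all genes with each pair of signs was not counted. Taken singly, 57.4% of all genes lay below 0 in tumors and 49.6% above 0 in cells. Without sh4 tumor 2, 15 of the 38 genes lay above 0 in tumors. Without scr plate 1, 10 of the 38 lay below 0 in cells. The tables were normalized separately, and the difference between them was not tested. Across the 38 genes the log2 differences of both tables had a Spearman correlation of 0.23 and the levels one of 0.74, given as descriptions over genes of the same libraries. *Mcm3* had the highest level in cells, 3.54 to 4.85 times the median of the other 5 Mcm genes of the ring, and stood at rank 11 in tumors with a ratio of 1.06 to 1.60. *Pcna* stood first in tumors (128.6 RPKM as a mean) and second in cells (59.4 FPKM). The widest gaps in rank were those of *Rfc2*, at rank 5 in tumors and rank 21 in cells, and *Mcm4*, at rank 22 in tumors and rank 6 in cells.

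**Figure D5:**
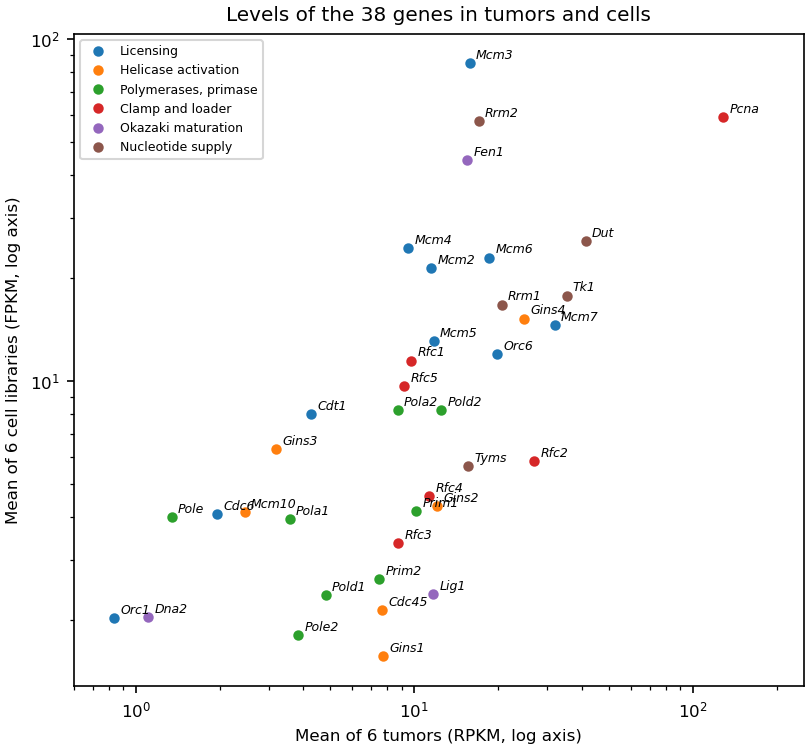
Mean level of each of the 38 genes over 6 tumors (horizontal log axis, RPKM) and over 6 cell libraries (vertical log axis, FPKM), colored by role. *Pcna* lies farthest right and *Mcm3* highest. The tables were normalized separately, so only the order within each axis can be read.

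The 17 genes with an E2F-type motif in the promoter were also set beside the 14 matched genes without one, as a description. Their median deviation in sh4 tumor 2 was -0.37 against -0.27, their median log2 difference in tumors was -0.18 against -0.09, and in cells it was 0.17 against 0.09. *Rrm2*, with the lowest deviation from its own mean in sh4 tumor 2 and the 1 call in cells, carries the motif, and *Cdc45* does not. Deviation in sh4 tumor 2 and transcript length had a Spearman correlation of -0.29 over the 38 genes, which share that library.

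Of 56 other genes of the pathway (origin and fork proteins, replication-coupled chromatin and nucleotide synthesis), 55 could be tested, and 0 were called in either table. In tumors 21 lay above and 34 below 0, against 42.6% and 57.4% of all genes. At an unadjusted p under 0.05, 0 were higher and 0 lower there, against 2.16% and 2.02% of all genes. In cells 45 lay above and 10 below 0, against 49.6% and 50.4% of all genes. At that threshold 14 were higher and 3 lower in cells, against 9.55% and 9.33% of all genes. *Orc2*, a subunit of the origin recognition complex, was at 4.55, 5.31 and 5.45 FPKM in scr and 7.55, 6.84 and 7.69 FPKM in sh4 plates, a log2 difference of 0.49 with an adjusted p of 0.055 by limma. *Dbf4*, the partner of the Cdc7 kinase that triggers origin firing, had a log2 difference of 0.38 (adjusted p = 0.092), and *Cad*, the enzyme that starts pyrimidine synthesis, one of 0.28 (adjusted p = 0.069). Among 18 genes of G1/S control 0 were called in either table. Of these, 12 lay above and 6 below 0 in cells (median 0.062), or 10 and 8 with median-ratio scaling. At an unadjusted p under 0.05, 7 were higher and 2 lower in cells. Tumors had 2 above and 16 below 0 (median -0.17), or 9 and 9 without sh4 tumor 2. *Cdkn1a*, the CDK inhibitor p21, was at 8.55, 8.72 and 7.53 FPKM in scr and 11.1, 10.4 and 10.9 FPKM in sh4 plates (log2 difference 0.37, adjusted p = 0.067 by limma), and *Ccne2*, a cyclin of the G1/S transition, had a log2 difference of 0.25 (adjusted p = 0.082). In tumors the repressor *E2f8* and the kinase *Cdk4* had log2 differences of -0.57 and -0.38, with groups that overlapped. Of 20 mitosis genes 18 lay below 0 in tumors (median -0.26; 16 with quantile normalization or median-ratio scaling) and 18 above 0 in cells (median 0.14), with 0 called. Without sh4 tumor 2 their tumor median was -0.060. *Aurka*, a kinase of the mitotic spindle, was at 9.08, 9.78 and 9.82 RPKM in scr and 6.07, 5.16 and 6.89 RPKM in sh4 tumors, a log2 difference of -0.63 with no overlap and an adjusted p of 0.995 by limma. *Ccnb2*, a mitotic cyclin, had one of -0.40 in tumors, and *Ccnb1* and *Plk1*, a mitotic cyclin and kinase, had 0.27 and 0.16 in cells.

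The target itself, *Rnaseh2c* (chr19:5601873-5603439 on mm9, plus strand, overlapped by *Kat5* on the other strand), was at 26.9, 52.0 and 25.9 RPKM in scr and 10.2, 22.4 and 19.8 RPKM in sh4 tumors, lower in all 3 sh4 tumors than in any scr tumor, with a log2 difference of -0.98 (SE 0.37, adjusted p = 0.995 by limma). In cells *Rnaseh2c* was at 5.83, 7.06 and 5.34 FPKM in scr and 3.19, 5.36 and 4.28 FPKM in sh4 plates, a log2 difference of -0.48 (SE 0.18, adjusted p = 0.236 by limma). The groups overlapped, since sh4 plate 2 lay just above scr plate 3.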

How the data were processed

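The authors deposited RPKM per gene for the 6 tumors, from mRNA libraries (HiSeq2500) after Trimmomatic, Tophat alignment (mm9, Ensembl v70) and the Partek Genomics Suite. The authors deposited FPKM for the 6 cell libraries, from total RNA. The methods name Tophat for them, and the submitters' processing notes list STAR 2.7 and TopHat2 2.1.0 without roles. Read numbers are not given in the sources used here, so depth is unknown and precision rests on the spread between libraries. The labels name experiments for the tumors and plates for the cells. Nothing states that plates were grown separately, so their p-values may measure technical spread.

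Values were taken as log2(value + 0.5), and a fold on this scale understates the change of low genes. Genes with a mean of at least 0.1 were fitted with limma 3.58.1 (R 4.3.3, variance trend, Benjamini-Hochberg over all genes tested), separately for each table. Of the cell table, 239874 assembled loci were left out. The fit was also run on simulated data in which genes varied independently. Shifts of a whole library were not simulated, so that run cannot speak to them. The 38 genes and the lists were chosen with earlier results of these data known. Values in every library are given for the 4 genes with the smallest p in each table (fewer than 4 being called), the gene of highest mean in each of the 6 role groups, *Rnaseh2c* and *Pola2*. Genes named of other lists are among the 2 of smallest p of their list, and not every list is described. Other genes were picked with their values seen. Positions are from GENCODE vM1 (mm9), promoters from RefSeq. The experiment number pairs the tumors by the labels. Deviations of same-numbered tumors correlated at 0.138, 0.330 and -0.117. Alternatives (15 settings in tumors, 14 in cells) were other pseudocounts, filters and scalings, a replicate block, no trend, a length index and leaving out each library.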

Additional observations from a re-analysis of the deposited data

Results flagged for a closer look

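*Cdc45* had log2 differences of opposite sign in the tables. All 3 sh4 tumors lay below all 3 scr tumors (-0.58), as in 4.98% of all genes, and all 3 sh4 plates above all 3 scr plates (0.13), as in 13.6%. Neither was called (adjusted p = 0.995 in tumors and 0.304 in cells by limma). The difference between tumors and cells was not tested, since the tables were normalized separately. The tumor value was -0.36 without sh4 tumor 2.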

How the results depend on the processing

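In tumors 0 genes were called under all 15 settings, and the median of the 38 genes stayed below 0, from -0.19 to -0.050 leaving out 1 tumor and at -0.065 with quantile normalization or median-ratio scaling (25 and 22 of 38 genes below 0). With the replicate block 0 genes were called in tumors. Quantile normalization reversed *Pold2* (0.082), *Fen1* (0.030) and *Dut* (0.041), and median-ratio scaling reversed *Mcm7* (0.020), *Pold2* (0.071), *Fen1* (0.024) and *Dut* (0.070). Leaving out 1 tumor gave -0.14 to 0.030 for *Mcm7*, -0.073 to 0.063 for *Pold2*, -0.18 to 0.12 for *Fen1*, -0.18 to 0.16 for *Dut*, -0.22 to 0.00050 for *Pola2*, -0.0022 to 0.22 for *Rfc4*, -0.38 to 0.013 for *Pola1* and -0.29 to 0.064 for *Mcm3*.

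In cells *Rrm2* lost its call with the replicate block (adjusted p = 0.256 by limma, log2 difference 0.42) and kept it under the other 7 settings that used all 6 plates. With the block 0 of the 38 genes were called and 4 in place of 9 were higher at an unadjusted p under 0.05. Over all genes, both directions together, 2813 in place of 3986 passed that threshold. The labels do not state whether scr and sh4 plates of the same number shared a batch. Their deviations correlated at -0.061, -0.075 and -0.073. With quantile normalization 2 of the 38 genes were called higher, *Mcm3* being the other (log2 difference 0.22, adjusted p = 0.049), and *Pcna* reversed (-0.053). The number of genes called higher and lower over all genes was 110 and 160. It was 32 and 45 with no filter, 545 and 678 with quantile normalization, 592 and 638 with median-ratio scaling, and 0 and 0 with the replicate block, and the number called higher was 174 at a mean of at least 1 and 53 with no trend. Leaving out 1 plate gave 1 to 83 called higher, 1 to 165 called lower and 0 to 1 of the 38 genes called. It gave a median of 0.094 to 0.14 for the 38 genes, -0.062 to 0.090 for *Pcna*, -0.0039 to 0.14 for *Dut*, -0.13 to 0.027 for *Gins4* and 0.40 to 0.44 for *Rrm2*. The cause of these changes was not tested. The length index could not be used in cells, where fewer than 80% of the genes tested had a length. Depth is unknown in both tables.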
